A study of Oryza sativa with 12 samples.

Results

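The 55 genes described here make up the core of the transcriptional auxin response in rice: 30 Aux/IAA genes and 25 ARF genes, ARF1 to ARF25. They were chosen by gene identity from a list of locus IDs, not by their values, out of 55986 IDs in the larger of the deposited tables. Earlier results of these data were known when the list was chosen. Of the 55, 54 had a row there, and 37 of the 55 were listed in the smaller table, which holds 11688 IDs. LOC_Os01g48450, an Aux/IAA gene, was not analysed here. Aux/IAA genes are called by their locus IDs, because the sources used here give them no numbers, and ARF genes by their numbers.

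Auxin acts by destroying repressors. Aux/IAA proteins bind ARF proteins, the transcription factors that sit on auxin response elements in promoters, and bring co-repressors to them; auxin joins Aux/IAA proteins to F-box receptors, which send them for degradation and free the ARFs. Many Aux/IAA genes are themselves switched on by auxin, so that the response carries its own brake. In abscission zones of other plants, a steady supply of auxin is known to hold back the separation of cells.

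RNA was taken from the abscission zone, the cell layer at the base of the spikelet where the rice grain comes off, on the day of flowering in field-grown plants. The 4 groups of 3 libraries were WT (wild type), ossh1 (mutant), CK (wild type) and oscct (mutant, oscct22 in the design text), each library from a pool of 5 plants. Each mutant was compared with its own wild type, to ask how its abscission zone transcriptome differs. The labels give no allele, clone or variety for any group, and they name a pair of growing places without tying libraries to them, so line background and place cannot be told apart from the mutation.

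Depth ranged from 30382846 to 32055561 counts over WT and from 27044341 to 28600944 over ossh1. Listed values of the other table add up to 12943437 to 13318397 per CK library and to 12526152 to 12812857 per oscct library. Since that table holds part of each library only, its depth is unknown. The files pair no ID with a name, so the mutated genes, markers of the abscission zone and of neighbouring tissues, and other genes of the auxin pathway were not analysed here. Levels are given as CPM, a count divided by the effective size of its library and put on a common scale within one table. They are not corrected for gene length, so they are compared between libraries and not between genes. In bulk RNA, fewer cells of a type and less RNA per cell cannot be told apart.

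In ossh1, Aux/IAA genes were mostly higher than in WT. Of the 25 Aux/IAA genes with enough counts to be tested, 15 rose, 5 fell and 5 did not pass the test (edgeR's quasi-likelihood test, Benjamini-Hochberg adjustment over 22669 genes, adjusted p under 0.05). Over all genes tested, 58.3% passed, 29.2% higher and 29.1% lower in ossh1. The median log2 fold change of the tested Aux/IAA genes was 0.35, beside -0.01 for all genes tested. Rises of at least 1.5-fold were found for 10 Aux/IAA genes and a fall of that size for 1, where 25.8% of all genes tested changed that much in either direction. The 25 passed a filter on low counts, so their count does not cover all 30.

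The Aux/IAA gene LOC_Os06g07040 on chromosome 6 changed most. It was at 113, 117 and 119 CPM in the WT libraries and at 818, 813 and 723 CPM in the ossh1 libraries. The groups lay far apart, and the WT libraries were within a few CPM of each other. Its level rose 6.75-fold (log2 fold change 2.76, SE 0.04, adjusted p = 2.49e-41).

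Aux/IAA transcripts as a whole took a larger share of the libraries, and this gene carried much of the increase. Summed over the Aux/IAA genes, the level was 2073, 2092 and 2087 CPM in WT and 3095, 3069 and 2971 CPM in ossh1. LOC_Os06g07040 supplied from 5.44% to 5.69% of that sum in WT and from 24.3% to 26.5% in ossh1. Without it, the sums were 1960, 1975 and 1968 CPM in WT and 2278, 2255 and 2248 CPM in ossh1, still without overlap.

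Further Aux/IAA genes rose by smaller factors and from lower levels. LOC_Os01g08320 on chromosome 1 was at 6.34, 6.68 and 8.31 CPM in WT and at 21.6, 21.2 and 18.8 CPM in ossh1 (log2 fold change 1.53, SE 0.10, adjusted p = 3.14e-17). On the same chromosome, LOC_Os01g53880 went from 2.03, 1.40 and 2.14 CPM to 4.66, 6.60 and 6.07 CPM (log2 fold change 1.63, SE 0.18, adjusted p = 2.98e-10). For both, each ossh1 library was above each WT library, although LOC_Os01g53880 rests on between 44 and 71 counts per WT library.

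LOC_Os03g58350 was at 7.05, 7.51 and 8.67 CPM in WT and at 20.5, 19.6 and 18.9 CPM in ossh1 (log2 fold change 1.34, SE 0.09, adjusted p = 3.37e-16). For LOC_Os07g08460, the WT libraries stood at 33.7, 37.3 and 37.3 CPM and the ossh1 libraries at 88.1, 84.9 and 83.6 CPM (log2 fold change 1.24, SE 0.05, adjusted p = 2.43e-24). LOC_Os05g08570 gave 25.03, 24.6 and 23.4 CPM in WT and 55.7, 54.9 and 52.2 CPM in ossh1 (log2 fold change 1.16, SE 0.06, adjusted p = 3.34e-21). In all of these the WT and ossh1 ranges were apart by more than either group's own range. Encoded by these genes are members of the repressor family that holds ARFs inactive in the absence of auxin.

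Rises with separate groups were also seen on chromosome 2. LOC_Os02g13520 went from 5.12, 6.81 and 5.86 CPM in WT to 13.8, 14.1 and 11.9 CPM in ossh1 (log2 fold change 1.16, SE 0.11). LOC_Os02g56120 went from 5.09, 4.14 and 3.96 CPM to 9.78, 7.53 and 9.38 CPM (log2 fold change 1.02, SE 0.13). LOC_Os02g57250 went from 33.9, 38.1 and 37.0 CPM to 63.0, 70.0 and 67.7 CPM (log2 fold change 0.88, SE 0.05). None of these 3 genes had overlapping groups, and their adjusted p-values were 8.29e-12, 1.34e-08 and 4.15e-18 (edgeR). LOC_Os01g18360, next in size, rose by 0.79 on the log2 scale (SE 0.23, adjusted p = 0.00339) on no more than 69 counts in any library.

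**Figure D1:**
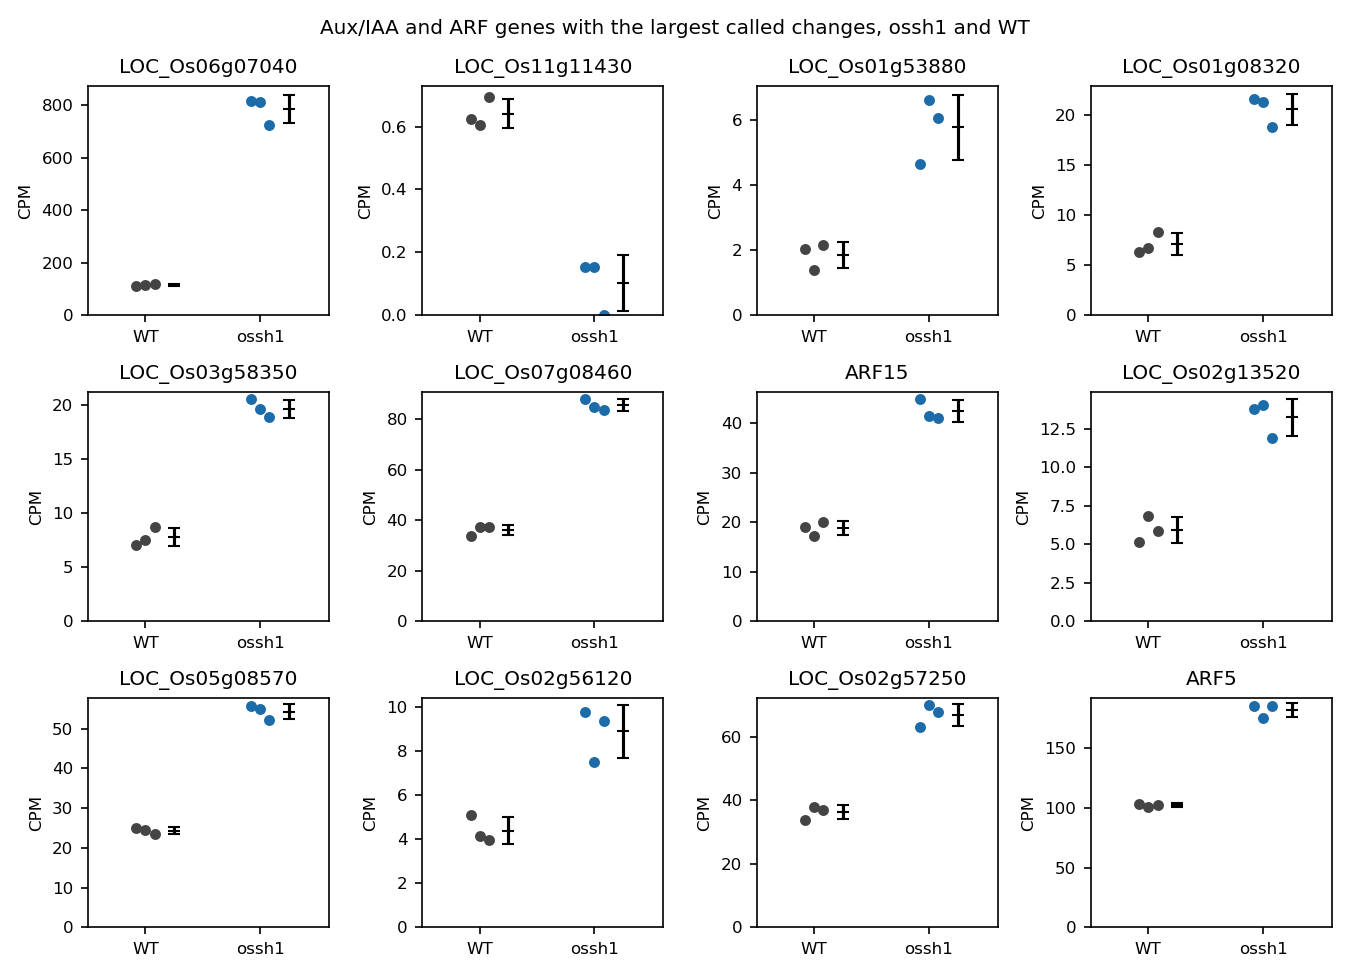
Level in CPM (y axis, from 0) in each WT and ossh1 library (points) for the 12 Aux/IAA and ARF genes with the largest called changes, with mean and SD (black bars). In 11 panels the ossh1 points are the higher ones, led by LOC_Os06g07040, and in 1 panel, LOC_Os11g11430, they are the lower ones.

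Aux/IAA genes with the most counts in WT moved little. LOC_Os03g53150 rose from 556, 561 and 558 CPM in WT to 757, 720 and 731 CPM in ossh1 (log2 fold change 0.40, SE 0.03, adjusted p = 1.97e-16). LOC_Os06g22870 fell from 504, 507 and 503 CPM to 454, 457 and 451 CPM, and LOC_Os05g14180 from 422, 434 and 427 CPM to 378, 400.2 and 392 CPM. These falls amounted to log2 fold changes of -0.15 (SE 0.03, adjusted p = 8.14e-06) and -0.13 (SE 0.03, adjusted p = 0.000173). Both passed the test, and neither reaches 1.5-fold. Small rises were called for LOC_Os05g48590 at 0.52 (SE 0.04), LOC_Os08g01780 at 0.19 (SE 0.06) and LOC_Os05g44810 at 0.11 (SE 0.03) on the log2 scale. The calls of LOC_Os08g01780 and LOC_Os05g44810 were lost in 3 and 1 alternative fits, with adjusted p up to 0.182 and 0.699.

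Of the other falls, LOC_Os01g09450 was at -0.16 (SE 0.06, adjusted p = 0.019) on the log2 scale, and that call was lost in 2 alternative fits, with adjusted p up to 0.0694. LOC_Os06g39590 was at -0.57 (SE 0.24, adjusted p = 0.0397), with overlapping groups, and that call was lost in 7 alternative fits, with adjusted p up to 0.141. The count of falling Aux/IAA genes dropped to 3 without WT library 1 and also without ossh1 library 3.

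Some Aux/IAA genes are neighbours, and their changes are given side by side, without a test between them. On chromosome 11, where LOC_Os11g11410, LOC_Os11g11420 and LOC_Os11g11430 have consecutive IDs, LOC_Os11g11430 was down to 4, 4 and 0 counts in ossh1 from 20, 19 and 23 in WT. It fell by 2.63 on the log2 scale (SE 0.59, adjusted p = 0.000199), a value that rests on few reads. LOC_Os11g11410 had from 4 to 8 counts per library and LOC_Os11g11420 from 0 to 2, too few to test. On chromosome 12, LOC_Os12g40890 rose by 0.35 (SE 0.08, adjusted p = 0.000331), while its neighbour LOC_Os12g40900 stood at -0.01 on the log2 scale (SE 0.13, adjusted p = 0.968). The pair on chromosome 3, LOC_Os03g43400 and LOC_Os03g43410, had at most 40 counts in any library and did not pass the test. The treatment of reads shared by near-identical neighbours was not given in the sources used here, so values of such pairs are uncertain.

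LOC_Os05g09480, with 110 to 153 counts per library, stood at 0.01 on the log2 scale (SE 0.15, adjusted p = 0.956) and LOC_Os02g49160, with 19 to 39 counts, at -0.34 (SE 0.33, adjusted p = 0.386), and neither passed the test. A few Aux/IAA genes were barely detected. LOC_Os09g35870 had 0 counts in all 6 libraries, which allows up to 0.0906 to 0.115 CPM per library (3 counts, counting error only). LOC_Os06g24850 had 2 counts in 1 ossh1 library and 0 in the others.

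ARF genes in ossh1 were split. Of 23 ARF genes tested, 9 rose, 9 fell and 5 did not pass the test, with a median log2 fold change of -0.09 beside -0.01 for all genes. Only ARF5 and ARF15 changed by at least 1.5-fold, and both rose. With library totals in place of TMM scaling factors, 7 ARF genes were higher and 12 lower, so the even split depends on the scaling. The same scaling moved the share of higher genes among all genes past the test from 50.1% to 38.6%.

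ARF15 (LOC_Os05g48870), a member of the clade whose transcripts are targets of tasiR-ARF small RNAs, went from 19.1, 17.3 and 20.1 CPM in WT to 45.0, 41.5 and 41.0 CPM in ossh1. The rise came to 1.17 on the log2 scale (SE 0.07, adjusted p = 3.21e-19). ARF5 (LOC_Os02g04810), one of the ARFs of the activator class, which carry a glutamine-rich middle region, went from 103, 100.5 and 103 CPM to 186, 176 and 185 CPM (log2 fold change 0.83, SE 0.04, adjusted p = 6.51e-23). The groups were separate for both genes.

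Among ARF genes that fell, ARF10 (LOC_Os04g43910) came first. It was at 32.6, 34.4 and 33.1 CPM in WT and at 22.6, 24.4 and 20.8 CPM in ossh1 (log2 fold change -0.57, SE 0.07, adjusted p = 1e-09). ARF14 followed at -0.38 (SE 0.07), ARF9 at -0.34 (SE 0.06), and ARF3 and ARF6 at -0.33 (SE 0.05 each), all called. ARF12, ARF17, ARF24 and ARF21 fell by 0.13, 0.13, 0.12 and 0.09 on the log2 scale, and for ARF21 the call (adjusted p = 0.0438) was lost in 10 alternative fits, with adjusted p up to 0.198. The calls of ARF24 and ARF12 were lost in 3 fits and 1 fit, with adjusted p up to 0.0649 and 0.0689.

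Rises below 1.5-fold were called for ARF7 at 0.49 (SE 0.08), ARF23 at 0.42 (SE 0.04), ARF16 at 0.36 (SE 0.09), ARF18 at 0.34 (SE 0.05), ARF19 at 0.30 (SE 0.04), ARF22 at 0.21 (SE 0.07) and ARF4 at 0.17 (SE 0.03), all log2 fold changes. The calls of ARF22 and ARF4 were lost in 2 fits and 1 fit, with adjusted p up to 0.179 and 0.0774. ARF1, ARF2, ARF8, ARF13 and ARF25 did not pass the test. Apart from ARF13, which had from 2 to 22 counts per library, their log2 fold changes lay between -0.16 and 0.10. With library totals ARF2, ARF8 and ARF25 passed as falls, with adjusted p of 0.0084, 0.0123 and 0.000659 (edgeR). ARF2 also passed as a fall without ossh1 library 2 (adjusted p = 0.0197, edgeR). ARF11 had at most 11 counts in any library, and ARF20 had 0 counts in every WT library and 1 count in every ossh1 library, below what can be compared.

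By known class, ARF genes in ossh1 were counted as follows. In the activator class 3 of 8 tested genes rose and 4 fell, and among the other ARFs 6 of 15 rose and 5 fell. Over all genes tested 29.2% were higher and 29.1% lower in ossh1. Of the miR160 targets ARF18 and ARF22 rose, ARF10 fell and ARF8 did not pass the test except with library totals. Of the miR167 targets ARF6, ARF12 and ARF17 fell, each by less than 1.5-fold, and ARF25, at -0.06 (SE 0.04, adjusted p = 0.171), did not pass except with library totals. Among the tasiR-ARF targets ARF15 rose, ARF3 and ARF14 fell and ARF2 did not pass except with library totals or without ossh1 library 2. With few genes in a class, these counts describe the genes and do not set a class apart.

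Counting both families together, 24 of the 48 tested genes rose in ossh1 and 14 fell. The CPM of the groups did not overlap for 38 of the 48, where 62.3% of all genes tested had groups that did not overlap. Leaving out WT library 1 lowered the count of falling genes to 9, while the count of rising genes stayed between 23 and 24 with any library left out.

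The comparison of oscct with CK has to be read differently, because its table lists only IDs with a difference between the groups. Of the 11518 IDs tested there, 99.2% were past the threshold (48.9% up and 50.3% down in oscct), so a call on a listed gene adds nothing to its being listed. Of the 48 genes tested in ossh1, 36 were listed for oscct (75.0%), where 47.8% of all genes tested in ossh1 were listed. Levels in oscct and CK are CPM of the listed counts, with the rows of one ID summed.

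All 37 listed genes passed the test in oscct, 28 higher and 9 lower. Their CPM did not overlap between the groups, as for 98.3% of all IDs tested. The median log2 fold change was 1.02 over the 18 listed Aux/IAA genes and 0.62 over the 19 listed ARF genes, beside -0.09 over all IDs tested. Changes of at least 1.5-fold were found for 24 of the 37 and for 51.6% of all IDs tested, and changes of at least 2-fold for 16 of the 37 and for 26.9% of all IDs tested. Scaling by listed totals moved the median over all IDs tested from -0.09 to 0.08, so small changes in this table depend on the scaling.

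Among Aux/IAA genes 14 were higher in oscct and 4 lower. LOC_Os06g07040 was again the one with the largest change, from 14, 11 and 16 counts in CK to 133, 138 and 153 counts in oscct. Scaled, this was 1.12, 0.901 and 1.27 against 9.996, 10.3 and 11.2 CPM. On the log2 scale it rose by 3.25 (SE 0.17, adjusted p = 3.29e-11), from far fewer counts than in the ossh1 table.

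LOC_Os05g14180, which was slightly lower in ossh1, went from 205, 212 and 221 CPM in CK to 679.9, 664 and 639.7 in oscct (log2 fold change 1.64, SE 0.03, adjusted p = 3e-16). For LOC_Os02g57250 the CK libraries stood at 58.8, 55.3 and 62.2 and the oscct libraries at 181, 182 and 175 (log2 fold change 1.61, SE 0.04, adjusted p = 8.67e-15). LOC_Os01g08320 stood at 73.8, 71.9 and 69.9 in CK and at 199, 185 and 181 in oscct (log2 fold change 1.39, SE 0.04, adjusted p = 5.46e-14). In these 3 genes the oscct libraries held more than 2 times the CK level throughout.

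LOC_Os07g08460 rose from 27.0, 25.9 and 27.4 CPM in CK to 58.2, 61.9 and 60.7 in oscct (log2 fold change 1.17, SE 0.05, adjusted p = 8.54e-12). LOC_Os01g18360 rose by 1.39 (SE 0.20) from 20 to 22 counts per CK library, and LOC_Os11g11410 by 1.63 (SE 0.35) from 5 to 8. The rises of LOC_Os06g22870, LOC_Os03g53150 and LOC_Os05g08570 came to 1.12 (SE 0.06), 1.03 (SE 0.03) and 1.01 (SE 0.05). Below 1.5-fold, LOC_Os05g09480 was higher by 0.56, LOC_Os05g48590 by 0.43, LOC_Os12g40890 by 0.38 and LOC_Os08g01780 by 0.30, on the log2 scale.

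The lower Aux/IAA genes in oscct included genes that had risen in ossh1. LOC_Os01g53880 went from 52.4, 52.7 and 58.3 CPM in CK to 22.3, 22.3 and 21.6 in oscct (log2 fold change -1.302, SE 0.06, adjusted p = 1.21e-11). LOC_Os03g58350 went from 8.81, 9.25 and 7.71 to 4.66, 5.32 and 5.37 (log2 fold change -0.75, SE 0.13, adjusted p = 4.51e-05). LOC_Os05g44810 and LOC_Os01g09450 were lower by 0.76 (SE 0.03) and 0.49 (SE 0.05). The groups were separate in all 4.

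**Figure D2:**
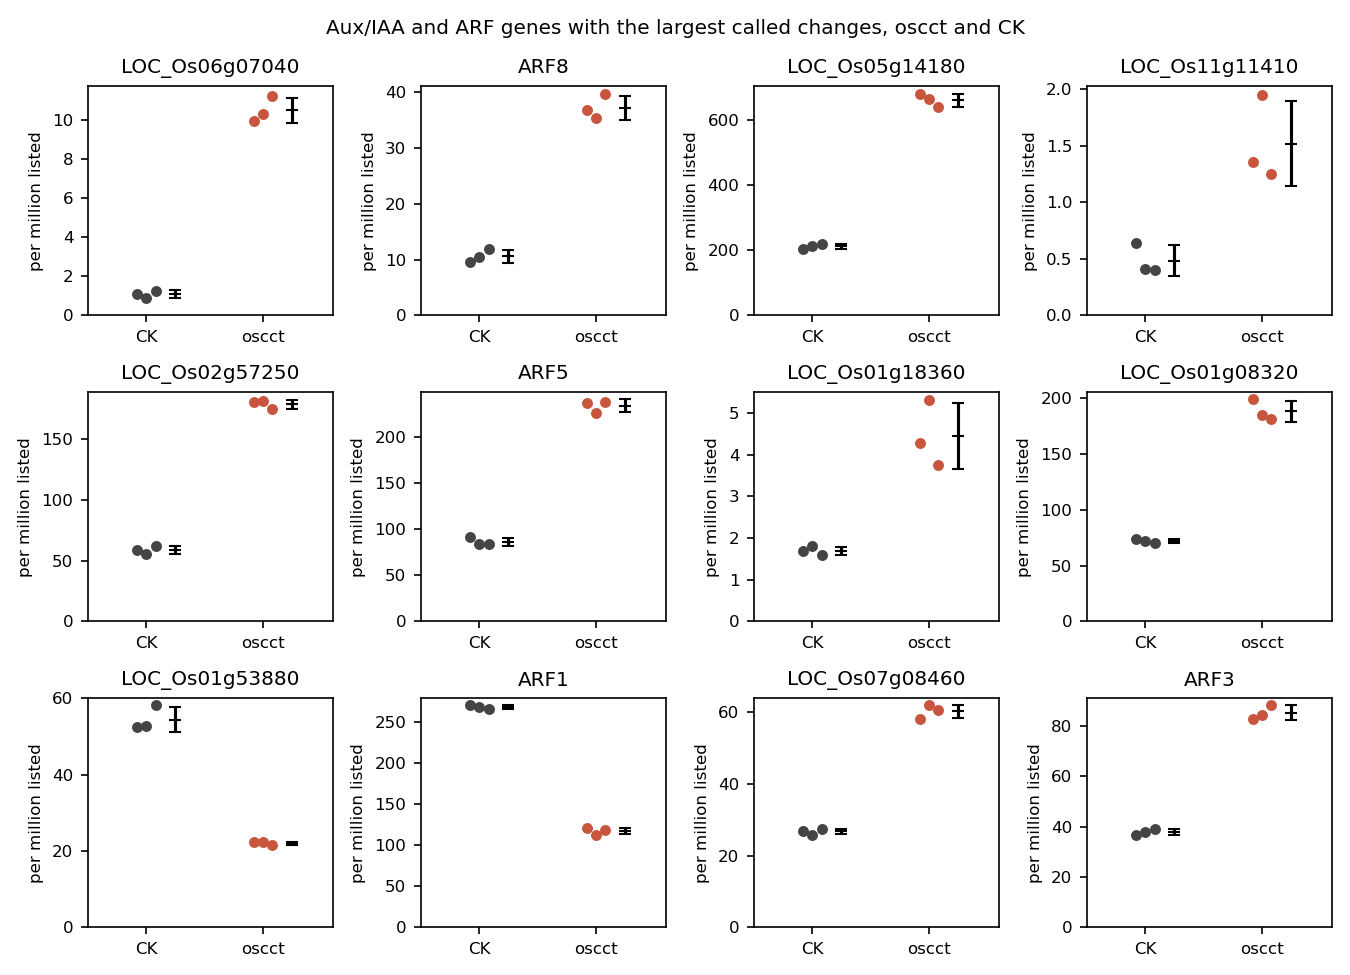
Level in CPM of the listed counts (y axis, from 0) in each CK and oscct library (points) for the 12 Aux/IAA and ARF genes with the largest called changes in that table, with mean and SD (black bars). LOC_Os01g53880 and ARF1 are lower in oscct and the other 10 are higher, with no overlap in any panel.

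ARF genes were mostly higher in oscct, 14 of the 19 listed, with 5 lower. ARF8 (LOC_Os02g41800), a target of miR160, led the rises, from 9.61, 10.4 and 11.8 CPM in CK to 36.8, 35.4 and 39.6 in oscct (log2 fold change 1.81, SE 0.09, adjusted p = 1.07e-11). ARF5 rose from 91.4, 83.9 and 83.7 to 238, 226 and 239 (1.44, SE 0.04, adjusted p = 1.45e-14). ARF3 (LOC_Os01g54990) rose from 36.7, 37.8 and 39.0 to 82.6, 84.3 and 88.4 (1.17, SE 0.05, adjusted p = 2.05e-12). For each of them the lowest oscct library was above 2 times the highest CK library.

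ARF21 (LOC_Os08g40900), of the activator class, stood at 245, 245 and 247 CPM in CK and at 503, 497 and 563 in oscct (log2 fold change 1.08, SE 0.04, adjusted p = 4.82e-13). Further rises were those of ARF10 and ARF12 (0.79 each), ARF19 (0.77), ARF18 (0.66), ARF23 (0.64), ARF24 (0.62), ARF15 (0.56), ARF9 (0.48), ARF2 (0.37) and ARF6 (0.22), all as log2 fold changes with SE from 0.03 to 0.08. ARF7, ARF11, ARF13, ARF20, ARF22 and ARF25 were not listed.

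ARF1 (LOC_Os01g13520) fell most, from 271, 268 and 265 CPM in CK to 120.3, 112 and 118 in oscct (log2 fold change -1.20, SE 0.03, adjusted p = 1.56e-14). ARF16 was lower by 0.58 (SE 0.07), ARF14 by 0.39 (SE 0.11), ARF4 by 0.38 (SE 0.10) and ARF17 by 0.11 (SE 0.04). With listed totals in place of TMM factors 14 ARF genes were still higher and only 2 lower, because ARF4 and ARF14 missed the threshold and ARF17 turned to 0.054 on the log2 scale (adjusted p = 0.213). The call of ARF17 was also lost with DESeq2 (adjusted p = 0.089) and without oscct library 2 (adjusted p = 0.0587, edgeR).

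**Figure D3:**
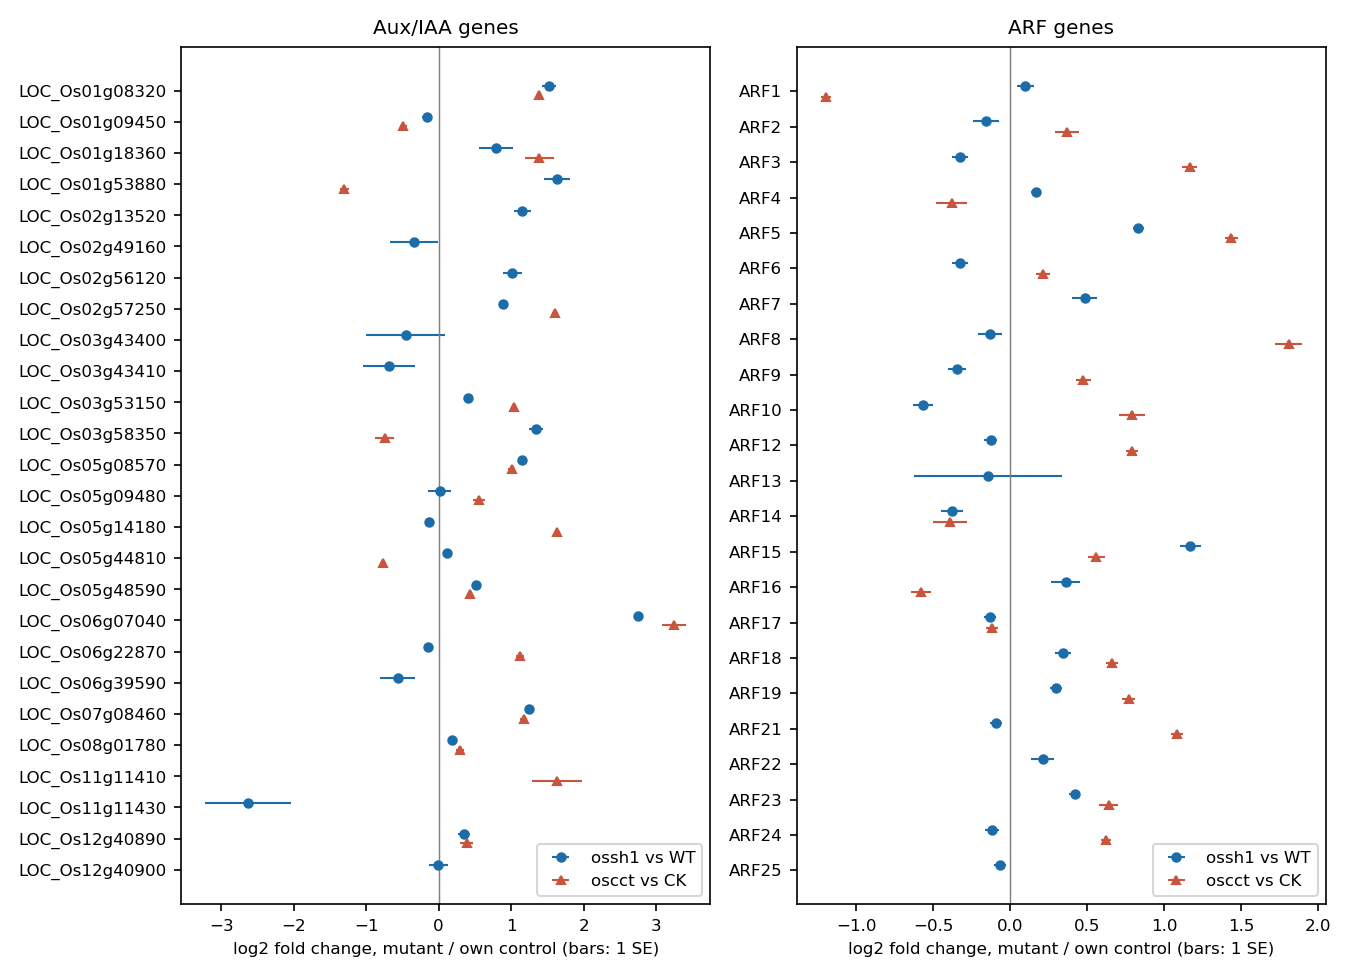
Log2 fold change of each Aux/IAA gene (left) and ARF gene (right) in ossh1 against WT (circles) and in oscct against CK (triangles), with bars of 1 SE. Most triangles lie to the right of 0, and circles of ARF genes lie between -0.57 for ARF10 and 0.49 for ARF7, apart from ARF5 at 0.83 and ARF15 at 1.17.

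By class, 5 of the 7 listed activator ARFs were higher in oscct and ARF16 and ARF17 lower, and 9 of the 12 other listed ARFs were higher. The 3 listed miR160 targets, ARF8, ARF10 and ARF18, were all higher. Of the miR167 targets ARF6 and ARF12 were higher and ARF17 lower. Of the tasiR-ARF targets ARF2, ARF3 and ARF15 were higher and ARF14 lower. With 3 or 4 genes in a class, and genes listed for a difference, these counts describe the genes and do not set a class apart.

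**Figure D4:**
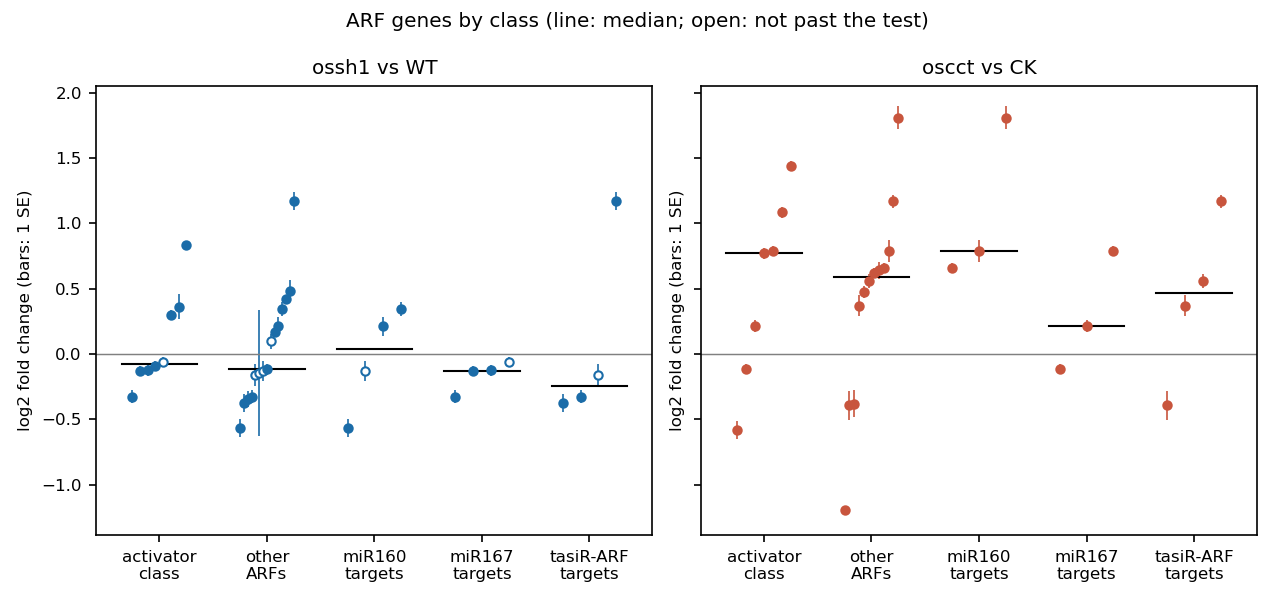
Log2 fold change of ARF genes (points, bars of 1 SE) by known class in ossh1 against WT (left) and oscct against CK (right), where a gene can stand in more than 1 column. Class medians (lines) lie between -0.24 and 0.04 in ossh1 and between 0.22 and 0.79 in oscct, and open points did not pass the test.

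Several of these genes occupied more than 1 row of the oscct table, as different transcripts of a gene would. The 37 genes had 53 rows, with 26 genes in 1 row and 11 in 2 to 4 rows. In all 11, the listed rows pointed the same way, and all 27 of their rows passed the test when rows were fitted singly. Rows were listed for a difference between the groups, so passing adds little to being listed. Rows of these genes with a small difference would be missing, so the agreement holds for listed rows only. LOC_Os01g53880 had 4 rows, with log2 fold changes of -1.98, -0.70, -1.35 and -1.33, and LOC_Os05g08570 had 4, with changes of 0.91, 1.02, 1.35 and 1.304. The 2 rows of ARF1 had changes of -1.25 and -1.01, and those of ARF12 had 0.52 and 0.93.

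A row can hold part of a gene's reads only. For 20 of the 37 genes the listed rows added up to whole numbers in every library, within 0.03 counts, and of these 16 were higher and 4 lower. For the other 17 genes the sums were not whole, so some of their reads may stand in rows that were not listed, and of these 12 were higher and 5 lower. Among the genes described above, LOC_Os06g07040, LOC_Os05g14180, LOC_Os02g57250, LOC_Os01g08320, ARF1, ARF3 and ARF12 had whole sums. Those of LOC_Os01g53880, ARF5, ARF8 and ARF21 were not whole. The median log2 fold change was 0.78 over genes with whole sums and 0.62 over the rest.

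Set side by side, with no library in common, the changes in the mutants were alike for some Aux/IAA genes and opposite for others. Of 32 genes past both tests, 15 were higher in both mutants, 3 lower in both, 9 up in oscct but down in ossh1, and 5 down in oscct but up in ossh1. That makes 18 of 32 in the same direction, 11 of 16 among Aux/IAA genes and 7 of 16 among ARF genes, where 37.8% of all IDs past both tests went the same way. Over the 36 genes tested in both, Pearson's r between the log2 fold changes was 0.28 and Spearman's rho 0.16, given as a description across genes.

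The change in oscct minus the change in ossh1 was put to a test of its own, in one model of all 12 libraries over 11654 IDs. Of the 37 genes, 19 had a change in oscct above that in ossh1, 8 one below it, and 10 did not pass the test. Over all IDs tested 80.3% passed, 40.8% above and 39.5% below. Among ARF genes 13 of 19 were above, 4 below and 2 not past the test. Among Aux/IAA genes 6 of 18 were above, 4 below and 8 not past the test, but 12 above and 3 below when scaled by library totals, which moved the median of all IDs tested from 0.02 to 0.29 and the share above among all IDs past the test from 50.8% to 61.8%.

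LOC_Os01g53880 had the largest difference, at 1.63 in ossh1 and -1.302 in oscct, which differed by -2.93 on the log2 scale (SE 0.18, edgeR). LOC_Os03g58350 differed by -2.09 (SE 0.16), with 1.34 in ossh1 and -0.75 in oscct. ARF8 differed by 1.94 (SE 0.12), at -0.13 in ossh1 and 1.81 in oscct. LOC_Os05g14180 differed by 1.77 (SE 0.05), at -0.13 and 1.64. For LOC_Os11g11410 the difference was 1.73 (SE 0.68, adjusted p = 0.0231, edgeR), from a few counts per library, and it was lost in 3 alternative fits with adjusted p up to 0.0852.

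**Figure D5:**
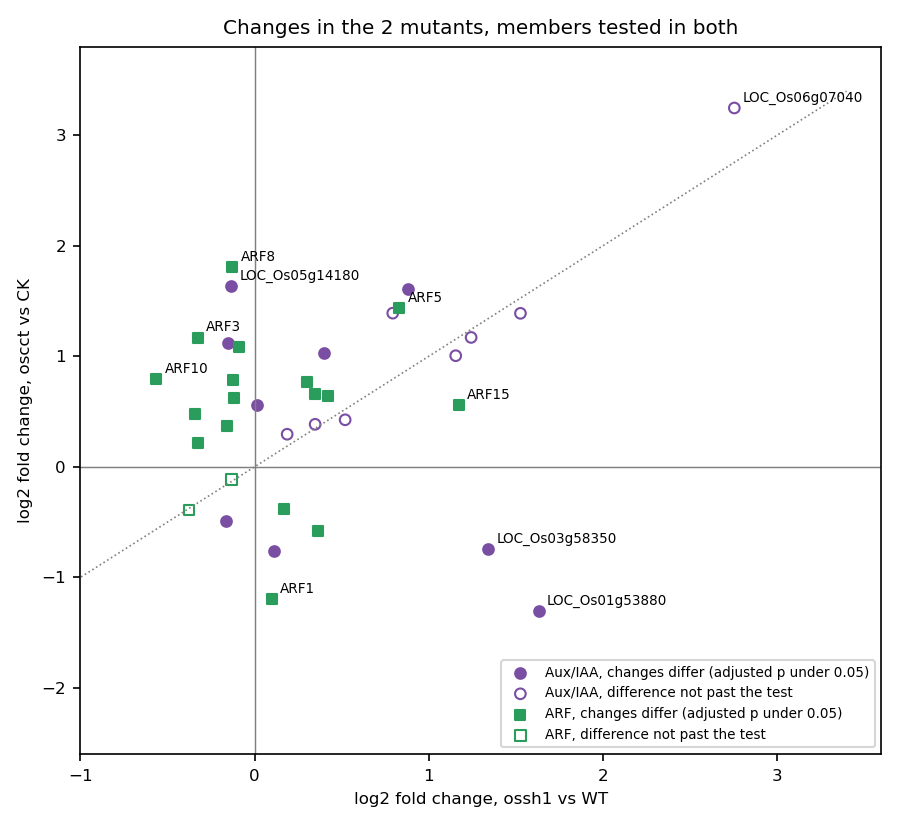
Log2 fold change in oscct against CK (y axis) and in ossh1 against WT (x axis) for the 36 genes tested in both, Aux/IAA as circles and ARF as squares, filled where the changes differed past the test. The dotted line marks equal change: LOC_Os06g07040 has a large rise in both mutants, while LOC_Os01g53880 and LOC_Os03g58350 lie in the quadrant of rise in ossh1 and fall in oscct.

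For 8 Aux/IAA genes the difference did not pass the test. LOC_Os06g07040 had changes of 2.76 and 3.25 that differed by 0.50 (SE 0.25, adjusted p = 0.0667), LOC_Os07g08460 changes of 1.24 and 1.17 that differed by -0.07 (SE 0.08, adjusted p = 0.402), and LOC_Os01g08320 changes of 1.53 and 1.39 that differed by -0.14 (SE 0.10, adjusted p = 0.228). LOC_Os05g08570, at 1.16 and 1.01, differed by -0.15 (SE 0.07, adjusted p = 0.0565). LOC_Os01g18360, at 0.79 and 1.39, differed by 0.60 (SE 0.29, adjusted p = 0.0633, edgeR). LOC_Os05g48590, LOC_Os08g01780 and LOC_Os12g40890 differed by -0.09 (SE 0.06), 0.11 (SE 0.10) and 0.04 (SE 0.14). These p-values do not show that the changes were equal, and the difference passed in 2 alternative fits for LOC_Os06g07040, in 3 for LOC_Os05g08570, in 1 for LOC_Os01g08320 (adjusted p = 0.0234, without WT library 3) and, with its sign turned to 0.19, in 1 for LOC_Os07g08460 (adjusted p = 0.0274, library totals). It passed in 3 alternative fits for LOC_Os01g18360, and with library totals for LOC_Os08g01780 and LOC_Os12g40890. For LOC_Os05g48590 it passed without ossh1 library 2 and, with its sign turned to 0.17, with library totals. Among ARF genes, ARF14 fell by 0.38 in ossh1 and 0.39 in oscct, and ARF17 by 0.13 and 0.11, without a difference past the test. With library totals, the ARF17 difference was 0.28 and passed (adjusted p = 6.05e-05, edgeR), and its oscct change turned to 0.054. The oscct call of ARF17 was also lost with DESeq2 and without oscct library 2.

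Of the 17 ARF genes whose changes differed past the test, 7 rose in oscct and fell in ossh1 with both changes called. These were ARF3, ARF6, ARF9, ARF10, ARF12, ARF21 and ARF24, and their differences ran from 0.54 for ARF6 to 1.495 for ARF3. The small falls of ARF21, ARF24 and ARF12 in ossh1 lost their calls in 10, 3 and 1 alternative fits. ARF4 and ARF16 did the reverse, with differences of -0.55 (SE 0.10) and -0.94 (SE 0.13). With library totals, ARF4 lost its call in ossh1 and in oscct. ARF1, at 0.10 in ossh1 and not called there, differed by -1.29 (SE 0.06).

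Replicates of one group lay close together for these genes. Among genes with a mean of at least 10 CPM, the median coefficient of variation over the 3 libraries was 2.73% in WT (34 genes), 4.08% in ossh1 (37 genes), 3.62% in CK (33 genes) and 4.31% in oscct (34 genes). The highest values were 11.2% for LOC_Os12g40890 in WT, 13.6% for ARF16 in ossh1, 14.5% for ARF14 in CK and 13.9% for ARF4 in oscct.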

How the data were processed

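RNA from the rice abscission zone was sequenced on a BGISEQ instrument after mRNA-seq library preparation, 3 libraries in each of 4 groups, per the labels. The submitters' processing notes list RSEM 1.3.1, HISAT2 and DESeq2 as tools and IRGSP-1.0 as build, without saying what each did. Strand use in counting was not given in the sources used here, so reads of antisense partners cannot be told apart. The authors deposited read counts, whole numbers per ID, for WT and ossh1, per the file headers. For CK and oscct they deposited estimated counts in 13301 rows for 11688 IDs, with rows of small group difference missing. What step removed them was not given there.

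Rows of one ID were summed and rounded to whole numbers. Mutant and control libraries of one table were fitted together (R 4.3.3, edgeR 4.0.16) with filterByExpr, TMM, glmQLFit and glmQLFTest, Benjamini-Hochberg adjustment over all features tested, threshold 0.05 and no replicate block. The SE is the log2 fold change divided by the square root of the F statistic. The difference of changes was fitted over IDs in both tables with factors from each full table. Genes named are those past the test with at least 1.5-fold change, at most 12 per comparison, and all listed genes with their log2 fold change, beside further genes in passing. The other auxin genes, markers and mutated genes were not analysed here because neither the files nor the reference table, of another assembly, pairs their IDs with names. That table held 0 of the 55 IDs, and 23 of the 25 ARF numbers as synonyms on the chromosome of the ID. Members and gene classes were chosen with earlier results of these data known. As alternatives, each library was left out in turn, limma-voom (limma 3.58.1) and DESeq2 1.42.0 replaced edgeR, library totals or RLE replaced TMM, the filter was dropped or set to a mean of at least 1 CPM, the most abundant row replaced the sum, and a replicate block was added. For oscct, scaling that centres the range of small changes without listed rows on 0 was added after seeing the data. Procedures were tested on simulated data in which few genes changed and no rows were removed for a small difference. The oscct table is unlike that, so the simulation does not cover its scaling, its calls or the test of the difference. Replicates are pools of plants, and chi-square per degree of freedom between them was 2.2 to 4.29, above sampling noise. Floors cover counting error only, while the SE also takes in the spread between replicate libraries. Figures used matplotlib 3.10.9.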

Additional observations from a re-analysis of the deposited data

Results flagged for a closer look

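The change differed between oscct and ossh1, by the test of the difference itself, for 27 of the 37 Aux/IAA and ARF genes in both tables. Over all IDs tested 80.3% differed, so this share says little about these genes in particular. In the largest differences, LOC_Os01g53880 had an oscct change minus ossh1 change of -2.93 on the log2 scale and LOC_Os03g58350 one of -2.09, each rising in all ossh1 libraries and falling in all oscct libraries against their own controls. ARF8 had a difference of 1.94 and LOC_Os05g14180 one of 1.77, with oscct above ossh1. The difference of 1.73 for LOC_Os11g11410 rests on 4 to 8 counts per WT or ossh1 library. Every gene in this test was listed for a difference between oscct and CK, so the adjusted p-values have no usual error rate.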

How the results depend on the processing

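Of 1839 values of single genes recomputed under the alternatives, 1779 kept their side of the threshold, and those called also kept their direction. Of the others, 39 lost a call, 18 gained one and 3 reversed. Reversal here means a change of sign in a value called in the main or the alternative fit. Changes of sign between uncalled values, such as LOC_Os05g09480 in ossh1 with library totals (0.01 to -0.08), are within the 1779. All 3 reversals came with library totals: ARF17 in oscct went to 0.054, and the difference between mutants went to 0.17 for LOC_Os05g48590 and 0.19 for LOC_Os07g08460. Library totals also gave 2 lower ARF genes in oscct instead of 5, and 12 Aux/IAA genes with oscct above ossh1 instead of 6; the cause was not tested. With a library left out, the lower genes in ossh1 numbered from 9 to 14, and the lower Aux/IAA genes among them from 3 to 5, with fewer samples in the fit. The higher genes in oscct numbered 28 under each of the alternatives. The replicate block gave 24 higher and 12 lower genes in ossh1, 28 and 9 in oscct, and 19 above and 8 below for the difference; LOC_Os06g39590 and ARF21 lost their calls in ossh1. Same-numbered libraries did not deviate together (correlations from -0.05 to 0.03), and not every library correlated best with its own number. The depth of the oscct table is unknown. In ossh1, 6 of the 54 genes in the table, ARF11 and LOC_Os11g11420 among them, had too few counts to be tested, and values of tested genes with few counts, such as ARF13 or LOC_Os11g11430, are imprecise.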

Other observations

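Levels of some Aux/IAA genes stood far apart between the tables, which were normalized separately and are not compared by any test here. LOC_Os06g07040 had from 3610 to 3934 counts in the WT libraries and from 11 to 16 listed counts, in 1 row, in the CK libraries. Both groups are labelled wild type and were sampled on the day of flowering. Whether further rows of this gene were left out for CK is not known. LOC_Os03g53150 had from 17634 to 18476 counts in WT and from 1686 to 1753 listed counts in CK, where its rows did not add up to whole numbers. In the other direction, LOC_Os01g08320 had from 203 to 275 counts in WT and from 878 to 922 listed counts in CK, although the CK values sum to less than the WT libraries do.

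On chromosome 7, the Aux/IAA gene LOC_Os07g08460 and ARF20 (LOC_Os07g08520) differed in detection. LOC_Os07g08460 rose in both mutants, while ARF20 had at most 1 count in any library of the ossh1 table and was not listed for oscct.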
